A study of Homo sapiens with 28 samples.

Results

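The mimic of miR-100-3p was compared with a scrambled control mimic in Kelly cells, an established human neuroblastoma line with amplified MYCN. The 4 libraries titled as miR-100-3p and the 4 titled as scrambled control, 8 of the 28 libraries in the series, were taken by their titles. Cells of both groups were reverse transfected with 25 nM of synthetic RNA, the medium was changed on the following day, and RNA was taken 48 h after transfection for stranded mRNA sequencing. The other 20 libraries hold 5 further mimics at the same dose and time, with 4 libraries each: miR-1283, miR-380-3p, miR-1915-3p, miR-485-3p and miR-99b-5p. No mock or untransfected library was analysed here, so all groups share the transfection reagent. Kelly is 1 cell line, and nothing in the labels states that replicates were grown as separate cultures. The p-values therefore measure the spread between these libraries, which may be technical.

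A microRNA guides an Argonaute protein to messenger RNAs, mostly through pairing of its seed, the bases near its 5′ end, with the 3′ untranslated region (UTR) of the target, and paired messages are translated less and decay faster. The MIR100 hairpin gives a guide from each arm. The 5p arm belongs to the miR-99 and miR-100 family, known for targeting MTOR and IGF1R, while the 3p arm is usually the less abundant one and has another seed. A mimic supplies 1 chosen arm in excess, at levels that can be above those of the cell's own microRNA.

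The mature sequences are shown because the whole comparison rests on which seed was delivered. They come from RefSeq (GRCh38.p14), and capitals mark the seed, bases 2 to 8 from the 5′ end.
miR-100-3p: cAAGCUUGuaucuauagguaug
miR-99a-3p: cAAGCUCGcuucuaugggucug
miR-99b-3p: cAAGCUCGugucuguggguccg
miR-100-5p: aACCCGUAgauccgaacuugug
miR-99b-5p: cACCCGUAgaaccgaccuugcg
The miR-100-3p guide lies on chromosome 11 (chr11:122152240-122152261, minus strand). Its seed differs from the one shared by miR-99a-3p and miR-99b-3p by U7C, with positions counted from the 5′ end of the microRNA, the miR-100-3p base first. It shares no seed with the 5p arm of its own hairpin. A site was defined as CAAGCTT in the 3′ UTR, the complement of bases 2 to 8 (a 7-mer site), and as an 8-mer site where an A follows, CAAGCTTA.

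The leading genes carry these sites in their longest annotated 3′ UTR (GENCODE v29, GRCh38, transcript strand, read 5′ to 3′). Capitals mark the 7-mer or 8-mer match, with 14 bases before it and the rest after it. The first 10 genes fell, and the last 2 rose.
VAMP3: acctgctatattatCAAGCTTAcctactg
RPS6KA2: ataaacttgtttcaCAAGCTTtaatccat
CNRIP1: aataggtgatgaagCAAGCTTgctaaagc
SKP2: agtctattcagaatCAAGCTTAaaaatta
RBX1: aagacttcttccatCAAGCTTAattgttt
PACSIN2: gcaacttaaatgaaCAAGCTTAcatccca
ETV5: gggcagcctggacaCAAGCTTAgattctc
PSMD10: attgaaaagaatgtCAAGCTTgttaaaat
RBMS3: agtagaggtgcagtCAAGCTTggatctgc
LAYN: agaaggtctatgaaCAAGCTTAgatcagg
FZD5: attgtgggcatgtaCAAGCTTAaataacg
TNR: cctctctccttcctCAAGCTTAataaggc
The 7-mer of VAMP3 lies at chr1:7779719-7779725, that of SKP2 at chr5:36182359-36182365 and that of RBX1 at chr22:40972506-40972512, all on the plus strand. Those of RPS6KA2 (chr6:166411127-166411133) and CNRIP1 (chr2:68316460-68316466) lie on the minus strand. TNR holds a second match, a 7-mer, elsewhere in its UTR.

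The library totals were 13038954 to 15215130 counts in the control and 11950836 to 21120611 with miR-100-3p. Transcripts of the mitochondrial genome made up 7.45% to 8.53% of the control counts and 6.87% to 11.7% of the mimic counts, the highest share being that of miR-100-3p replicate 3. That library also stood farthest from its group in the correlation of log2 expression (r 0.9767 to 0.9847 with the other 3). The 8 markers of adrenergic neuroblastoma cells summed to between 8252 and 8973 CPM (counts scaled to a common library size, here the library total alone) in the control and to between 8844 and 10436 CPM with the mimic, which fits the label. The 3 mesenchymal markers PRRX1, FN1 and VIM summed to 72.0 to 116 CPM and 78.5 to 90.3 CPM. The 17 markers of immune, endothelial, fibroblast, epithelial, glial and hepatocyte cells in the table summed to 16.6 to 18.6 CPM and 14.8 to 17.5 CPM. DCN, KRT18, S100B and ALB were at 0 in all 8 libraries.

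The mimic lowered and raised similar numbers of genes, and seed sites were more frequent among the genes that fell. Of 15058 genes tested, 437 (2.90%) were called higher and 460 (3.05%) lower than in the control, using edgeR's quasi-likelihood test and a Benjamini-Hochberg adjusted p under 0.05. The changes were small: the median absolute log2 change of the 897 called genes was 0.44, and 77 genes (0.511%) changed at least 2-fold, 28 upward and 49 downward. Of the 44 genes with an annotated 3′ UTR that fell by 2-fold or more, 11 carry a 7-mer site. Without miR-100-3p replicate 3, 547 genes were called and 48 of them by 2-fold or more, and without scrambled control replicate 2 the number called was 581. Of the genes called both with all libraries and with any 1 library left out, none changed direction. Calls that were lost are not covered, and 57.6% of the 897 were kept without miR-100-3p replicate 3. The 4 mimic values lay wholly above or below the 4 control values for 1855 genes (12.3%), 826 of which were also called.

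**Figure D1:**
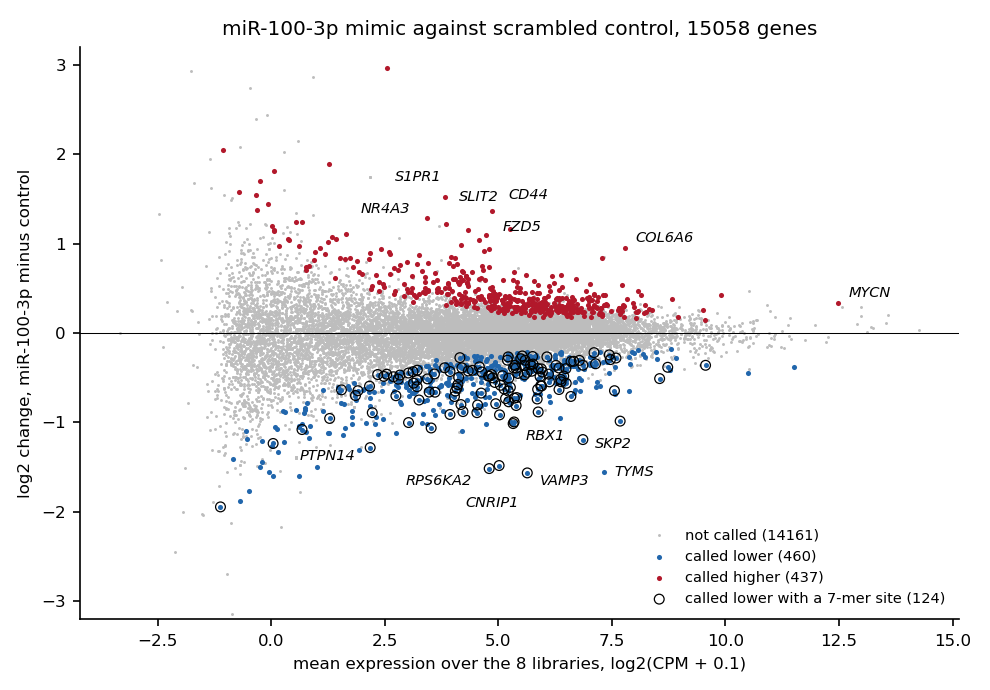
Log2 change (miR-100-3p minus scrambled control, vertical axis) against mean expression over the 8 libraries (horizontal axis, log2 of CPM plus 0.1) for the 15058 genes tested. Red points are the 437 genes called higher, blue points the 460 called lower, and rings mark the 124 lower genes with a 7-mer site. 13 genes beyond 3.2 on the vertical axis, none of them called, are not shown. VAMP3, RPS6KA2 and CNRIP1 are the lowest ringed genes beyond 2 on the horizontal axis, and TYMS lies as low without a ring.

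VAMP3, a SNARE protein of recycling vesicles, had the largest fall among the genes whose groups did not overlap and whose log2 CPM averaged 2 or more. It measured 79.7, 73.8, 76.4 and 66.9 CPM in the control libraries (replicates 1, 2, 4 and 5) and 25.7, 27.7, 23.7 and 23.4 CPM in the mimic libraries (replicates 1 to 4). The groups were far apart, with a mean of 25.1 ± 2.00 CPM against 74.2 ± 5.44 (SD, n = 4 each), a log2 change of −1.56 (SE 0.08, edgeR adjusted p = 8.46e-14). Its 8-mer site begins at base 74 of a 1787-base UTR.

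RPS6KA2, a ribosomal S6 kinase downstream of ERK, measured 41.0, 38.5, 44.2 and 40.6 CPM in the control and 14.7, 17.2, 11.5 and 14.0 CPM with the mimic. CNRIP1, which binds the cannabinoid receptor CB1, measured 48.7, 46.9, 44.3 and 50.2 CPM against 17.5, 19.6, 14.6 and 16.3 CPM. In both genes every mimic library lay at less than the lowest control, with 35.0% and 35.8% of the control mean left. The log2 changes were −1.52 (SE 0.10, edgeR adjusted p = 2.88e-11) for RPS6KA2 and −1.48 (SE 0.09, edgeR adjusted p = 3.89e-12) for CNRIP1, each with 1 7-mer site and no 8-mer.

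Subunits of the SKP1-cullin-F-box ubiquitin ligase that marks the cell cycle inhibitor p27 for destruction were among the genes that fell. SKP2, the F-box protein that recognises p27, measured 164, 168, 149 and 166 CPM in the control and 74.5, 79.4, 67.1 and 62.1 CPM with the mimic, 43.8% of the control mean (log2 change −1.19, SE 0.09, edgeR adjusted p = 5.49e-10). RBX1, the RING protein that recruits the ubiquitin-conjugating enzyme, measured 52.7, 58.0, 51.4 and 52.0 CPM in the control replicates, and the mimic libraries lay between 24.9 and 27.5 CPM (log2 change −1.01, SE 0.11, edgeR adjusted p = 1.46e-06). Neither gene's groups overlapped, and each gene has 1 8-mer site. The RBX1 site begins at base 18 of its UTR.

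The remaining subunits, named here after their values were seen, did not fall alike. CKS1B, the cofactor of SKP2 for p27, has no site and was at 80.2% of the control mean (log2 change −0.32, SE 0.07, edgeR adjusted p = 0.00329). SKP1, the adaptor, carries an 8-mer site in an 8798-base UTR and had a log2 change of 0.13 (SE 0.08, edgeR adjusted p = 0.434). CUL1, the scaffold, was at 0.17 (SE 0.07, edgeR adjusted p = 0.174), and the message of p27 itself, CDKN1B, at −0.17 (SE 0.09, edgeR adjusted p = 0.305).

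TYMS, thymidylate synthase, fell as far as VAMP3 and holds no match. It measured 238, 249, 259 and 216 CPM in the control and 91.0, 92.3, 72.0 and 73.2 CPM with the mimic. The groups did not overlap, and the log2 change was −1.55 (SE 0.07, edgeR adjusted p = 8.46e-14). Its 581-base UTR holds neither the 7-mer nor the 6-mer of bases 2 to 7, and its coding sequence holds no 7-mer. ENOSF1, which overlaps it on the opposite strand and was looked up after the values were seen, was at −0.07 (SE 0.11, edgeR adjusted p = 0.789). Whether the counting used strand is not given in the sources used here.

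The 12 largest falls also included 6 less abundant genes. SYPL1, a synaptophysin-like vesicle protein with 1 8-mer site, measured 15.6, 18.9, 13.9 and 13.2 CPM in the control and 8.16, 7.23, 6.87 and 7.15 CPM with the mimic. PTPN14, a tyrosine phosphatase that restrains YAP, with 1 7-mer site, measured 5.79, 6.09, 5.05 and 8.02 CPM against 2.74, 3.95, 1.94 and 1.82 CPM. All mimic values of both genes lay under all control values (log2 changes −1.06, SE 0.16, and −1.28, SE 0.23). NOTCH3, a Notch receptor, the sulfotransferase SULT1C4, the photoreceptor disc protein PRCD and the actin-binding SYNPO2 fell by 1.02, 1.12, 1.10 and 1.01 on the log2 scale without a 7-mer site in the longest UTR.

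Among the site genes ranked by p-value came 5 with falls of under 2-fold. PACSIN2, a membrane-bending protein of endocytosis, measured between 94.8 and 102 CPM in the control libraries and 63.2, 64.5, 66.3 and 59.1 CPM with the mimic. ETV5, a transcription factor of the PEA3 group downstream of ERK, measured 48.1, 43.7, 45.1 and 51.5 CPM against 29.6, 28.0, 27.6 and 25.5 CPM. The mimic values were tightly grouped and well under the control in both. PSMD10 (gankyrin, a proteasome assembly chaperone), the RNA-binding RBMS3 and the hyaluronan receptor LAYN fell to 54.4%, 53.9% and 57.4% of their control means. For these 5 genes edgeR's adjusted p ran from 6.33e-08 in PACSIN2 to 5.88e-06 in LAYN.

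The share of lower genes was highest with the 8-mer match, but it did not rise with every step of the seed match or with the number of sites. Of 12535 tested genes with an annotated 3′ UTR of at least 50 bases, 3.45% were called lower. The share was 9.44% for the 1313 genes with a 7-mer site (124 genes) and 2.74% for the 11222 without one. It was 19.2% for the 250 genes with an 8-mer (48 genes) and 7.15% for the 1063 with a 7-mer and no 8-mer. Genes with at least 2 7-mer sites were lower in 7.89% (12 of 152), and those with exactly 1 in 9.65% (112 of 1161). Genes with only the 7-mer form that pairs bases 2 to 7 and has the A (947 genes) were lower in 7.71%, those with only the 6-mer of bases 2 to 7 (2602 genes) in 3.04%, and those with only a match in the coding sequence (1175 genes) in 4.17%. Called higher were 2.89% of the 7-mer genes and 1.60% of the 8-mer genes, against 3.36% of all genes with a UTR. These are counts over genes, which are not independent replicates, and they carry no test.

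**Figure D2:**
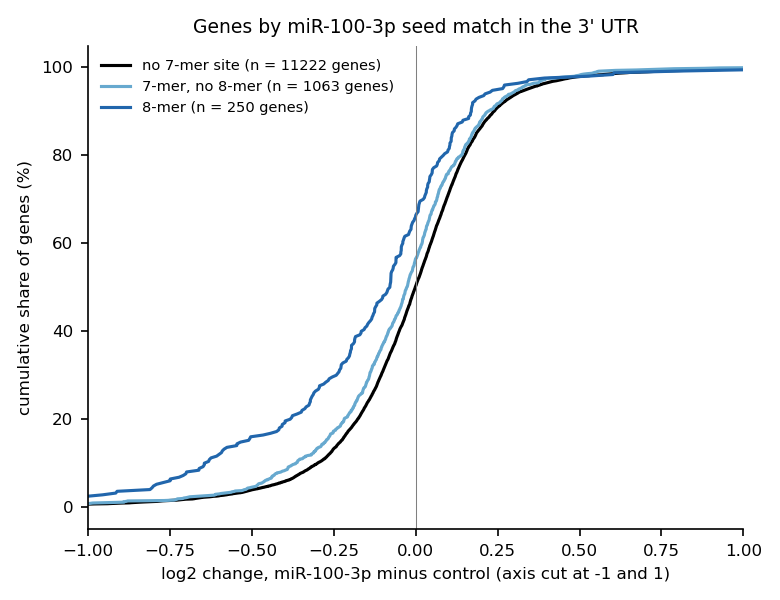
Cumulative share of genes (vertical axis, %) by log2 change (horizontal axis, miR-100-3p minus control) for 11222 genes with no 7-mer site, 1063 with a 7-mer and no 8-mer, and 250 with an 8-mer in the longest 3′ UTR. The 8-mer curve lies to the left of the others, with a median of −0.079 against −0.001 for genes with no site.

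Most genes with a site were not called lower. The median log2 change was −0.037 with a 7-mer and −0.079 with an 8-mer, and 66.0% of the 8-mer genes had a negative value against 50.2% of those with no site. In single libraries the median of the 8-mer genes, less that of the genes with no site, was −0.109, −0.029, −0.055 and −0.189 in miR-100-3p replicates 1 to 4. In the control libraries, each set against the other 3, it was 0.049, 0.017, −0.099 and 0.019. The mimic libraries were all negative, but control replicate 4 lay within their range, so the groups overlapped in this summed measure. The 20 libraries of the other mimics ranged from −0.134 to 0.107.

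The slope of expression on transcript GC content also differed between libraries. It ran from −1.76 in miR-100-3p replicate 3 to 1.5 in miR-100-3p replicate 4, and from −0.276 to 1.33 in the control. The 2972 genes richest in GC had a median log2 change of −0.126 (22 higher, 73 lower), against 0.034 for the 2973 poorest (61 higher, 98 lower). The part of GC content in the medians of the site genes was not tested. With that slope as a covariate, 17.1% of the 7-mer genes and 6.30% of genes with no site were called lower.

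**Figure D3:**
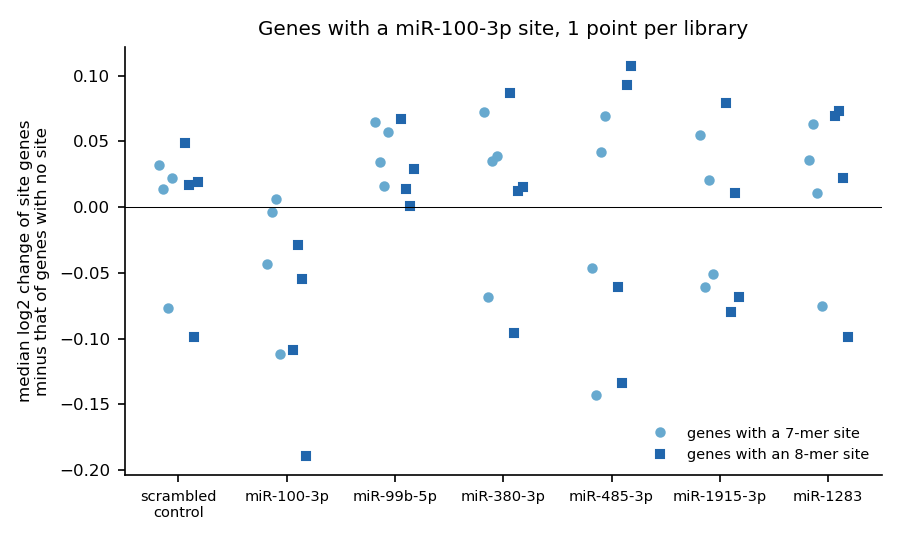
Median log2 change of genes with a miR-100-3p site minus that of genes with no site (vertical axis), 1 point per library in the 7 groups, with circles for 7-mer and squares for 8-mer genes. Libraries are set against the mean of the controls, and each control against the other 3. All 4 squares of miR-100-3p are below 0, and 1 or 2 libraries each of the control, miR-380-3p, miR-485-3p, miR-1915-3p and miR-1283 reach into their range.

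No other 7-letter word ranked above the seed match among the lower genes. When all 15981 words of 7 letters found in the 3′ UTRs of at least 100 tested genes were ranked by the excess share of lower genes, AAGCTTA was in place 1 and CAAGCTT in place 2, and both words lie within the 8-mer match. They held the same places when ranked by the scaled mean change. Genes with sites for the other mimics' seeds were called lower in 3.15% (miR-1915-3p) to 5.06% (the 158 genes with the site that miR-99b-5p shares with miR-100-5p), and those with a miR-99b-3p site, which differs by 1 base, in 5.96% of 235.

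UTR length and parts of the site context went with the share of falls. With UTRs of 619 to 1442 and of 1443 to 2832 bases, 14.6% and 14.8% of site genes were called lower, against 2.77% and 2.80% of genes with no site. With longer UTRs the shares were 6.36% and 3.05%, and with shorter ones 6.45% (4 of 62) and 2.44%. Among genes with exactly 1 site, the 112 called lower had an 8-mer in 37.5%, a median of 64.3% A and T around the site and a median distance of 335 bases to the nearer end of the UTR. The 1012 not called had 16.5%, 57.1% and 685 bases. The 37 called higher had 8.11%, 61.9% and 956 bases, so their A and T share was also above that of the genes not called.

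Of the 1313 genes with a 7-mer, 38 were called higher, 2 of them among the largest rises. FZD5, a Wnt receptor with an 8-mer site, measured 17.0, 17.6, 16.4 and 16.2 CPM in the control and 32.3, 32.7, 39.2 and 39.2 CPM with the mimic (log2 change 1.09, SE 0.18, edgeR adjusted p = 0.00023). TNR, the matrix glycoprotein tenascin-R, with 2 sites in an 8163-base UTR, measured 8.54, 8.75, 7.69 and 9.34 CPM against 17.8, 20.3, 25.0 and 17.1 CPM (log2 change 1.22, SE 0.18, edgeR adjusted p = 6.41e-05). Every mimic library lay above every control library in both genes, which the choice of the largest rises required.

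S1PR1, a G protein-coupled receptor for sphingosine 1-phosphate, measured 6.08, 6.62, 8.06 and 8.42 CPM in the control and 17.6, 13.7, 25.8 and 26.4 CPM with the mimic (log2 change 1.52, SE 0.21, edgeR adjusted p = 3.18e-05). CD44, the hyaluronan receptor, measured 14.8, 17.3, 19.7 and 13.0 CPM against 35.0, 35.4, 51.9 and 44.6 CPM (log2 change 1.36, SE 0.15, edgeR adjusted p = 1.46e-06). The mimic values varied more than the control values and lay entirely above them.

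NR4A3, an orphan nuclear receptor and immediate early gene, measured 5.43, 5.63, 5.50 and 8.09 CPM in the control, replicate 5 being the high one, and 13.3, 13.4, 18.8 and 15.3 CPM with the mimic (log2 change 1.29, SE 0.16, edgeR adjusted p = 9.69e-06). Of 16 immediate early genes tested, 1 was called higher, NR4A3, and 1 lower, NR4A2 (log2 change −1.09). The shares over all genes were 2.90% higher and 3.05% lower. NR4A2 lay at 0.362 to 1.12 CPM in the control and 0.168 to 0.514 CPM with the mimic, and the groups overlapped (edgeR adjusted p = 0.0495). Its call was lost with DESeq2, limma-voom, every other scaling, no filter, the 8 libraries alone, the replicate block or the library code. It was also lost without scrambled control replicate 2, 4 or 5, or miR-100-3p replicate 1, 2 or 3. In the immediate early list 11 genes had a negative change, and the median was −0.29. COL6A6, a collagen VI chain, was the most abundant of the 12 largest rises, at 148, 156, 147 and 148 CPM against 261, 290, 332 and 277 CPM (log2 change 0.95, SE 0.12, edgeR adjusted p = 6.82e-06). SERPINB9, an inhibitor of granzyme B, measured 25.6, 25.6, 22.9 and 19.7 CPM against 51.3, 55.9, 52.3 and 51.0 CPM (log2 change 1.17, SE 0.15). NR4A3, COL6A6 and SERPINB9 were separate between the groups, as was required of the 12 largest rises. The hormone STC1, the metalloprotease ADAMTS19, the EGF receptor ligand HBEGF and the homeobox factor SHOX2 rose by 1.04, 0.99, 0.94 and 0.94 on the log2 scale.

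**Figure D4:**
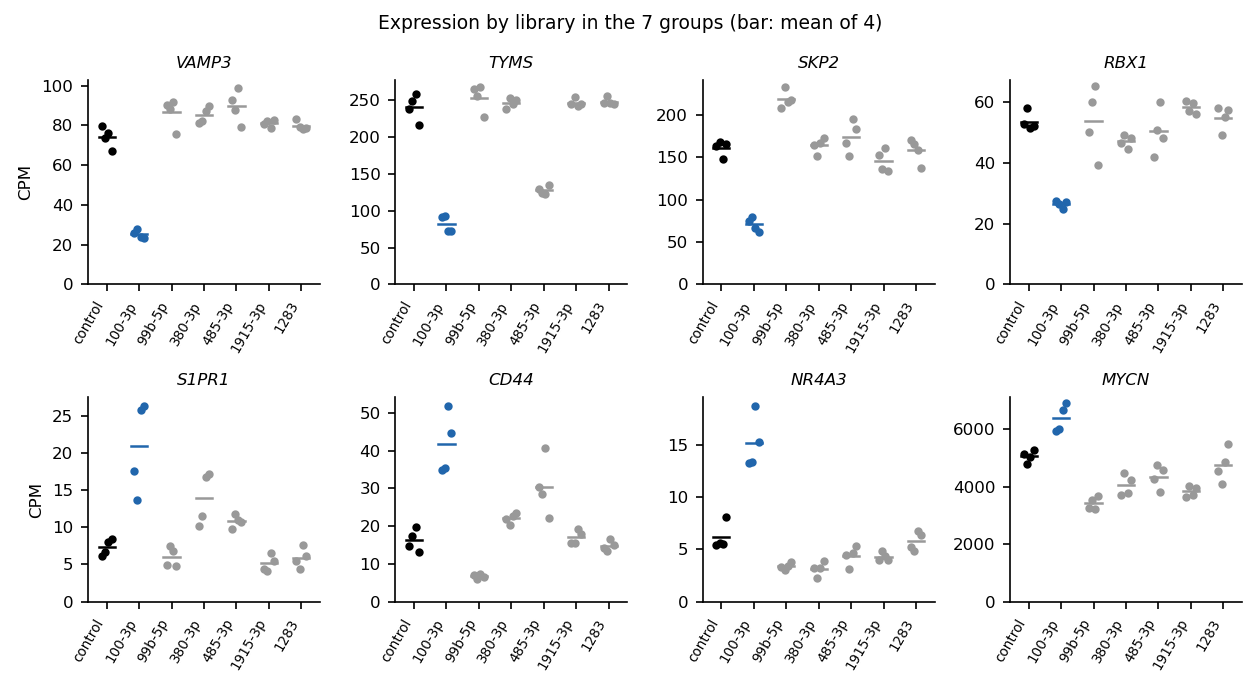
CPM (vertical axis, from 0) of 8 genes in the 28 libraries, by group (horizontal axis), with a bar at the mean of 4 libraries. VAMP3, SKP2 and RBX1 have their 4 lowest values in the miR-100-3p libraries, TYMS is low with miR-100-3p and miR-485-3p, and MYCN is highest with miR-100-3p.

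The contrast with the other 5 mimics does not use the control libraries. In that contrast 1373 genes (9.12%) were higher and 1205 (8.00%) lower with miR-100-3p. Of the genes called lower against the control, 390 were also lower than under the other mimics, which is 84.8% of the former and 32.4% of the latter. Of those called higher, 355 were higher in both, or 81.2% and 25.9%, and 1 gene was called in opposite directions. The miR-100-3p libraries enter both contrasts. Of the 7-mer genes 18.7% were lower than under the other mimics, and of the 8-mer genes 27.6%, against 9.04% of all genes with a UTR.

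VAMP3 (log2 difference −1.75, SE 0.07), TYMS (−1.41, SE 0.06), RPS6KA2 (−1.32, SE 0.08), SKP2 (−1.27, SE 0.07) and CNRIP1 (−1.24, SE 0.07) were lower than under the other mimics, with edgeR adjusted p-values from 2.28e-16 to 7.37e-12. NR4A3 (1.88, SE 0.11), COL6A6 (1.42, SE 0.08) and IGSF1 (0.94, SE 0.07), a membrane glycoprotein of the immunoglobulin family, were higher. The mimics were then each compared with the same 4 control libraries. TYMS averaged 128 ± 5.36 CPM (SD, n = 4) with miR-485-3p, a log2 change of −0.91 (SE 0.07, edgeR adjusted p = 4.34e-10), and 247 to 254 CPM under the remaining 4. CNRIP1 averaged 25.6 ± 2.70 CPM (SD, n = 4) with miR-99b-5p (log2 change −0.89, SE 0.08, edgeR adjusted p = 1.15e-08). CD44 averaged 6.74 ± 0.571 CPM (SD, n = 4) with miR-99b-5p, a fall of 1.27 (SE 0.16), and 30.5 ± 7.70 CPM with miR-485-3p, a rise of 0.92 (SE 0.15). Some other genes named above changed about as far or farther with another mimic. PRCD fell by 1.22 (SE 0.17) and SHOX2 rose by 0.93 (SE 0.16) with miR-380-3p. NOTCH3 and SYPL1 fell by 1.46 (SE 0.24) and 0.98 (SE 0.16) with miR-485-3p.

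MYCN, the amplified oncogene of this line, was higher with the mimic. It measured 5119, 4790, 5021 and 5283 CPM in the control and 5928, 5992, 6673 and 6925 CPM with miR-100-3p, without overlap (log2 change 0.34, SE 0.08, edgeR adjusted p = 0.0123). Under the other 5 mimics it averaged 3429 to 4738 CPM, and the log2 difference from their mean was 0.65 (SE 0.06, edgeR adjusted p = 1.85e-08).

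Adrenergic identity genes, which encode the transcription factors and catecholamine enzymes of sympathetic cells, were called lower more often than higher. Of 27 tested members, 8 were called lower and 1, MYCN, higher, with a median log2 change of −0.13 against −0.01 for all genes. All genes tested were called lower in 3.05% and higher in 2.90%. The lower count of the list fell to 2 to 4 without scrambled control replicate 1, 2, 4 or 5, or without miR-100-3p replicate 2 or 3. It fell to 6 or 7 without either other library. RET, the GDNF receptor kinase, measured 227, 229, 212 and 272 CPM in the control and 169, 160, 123 and 135 CPM with the mimic (log2 change −0.68, SE 0.11, edgeR adjusted p = 0.000154). The groups did not overlap, and RET has no 7-mer site. Tyrosine hydroxylase, TH, measured 241, 272, 329 and 275 CPM against 185, 171, 171 and 334 CPM, with replicate 4 as high as the controls (edgeR adjusted p = 0.543). ALK, the receptor kinase often mutated in neuroblastoma, had a log2 change of −0.15 (SE 0.10, edgeR adjusted p = 0.447). The mesenchymal list, which holds genes of the alternative neuroblastoma state, also had more lower than higher calls, 4 and 1 of 13 tested. Its lower count was 2 without scrambled control replicate 1 or 2 or miR-100-3p replicate 2, 1 without miR-100-3p replicate 4, 2 with a mean CPM of at least 5 and 1 with the 8 libraries alone. CD44 was the higher member and NOTCH3 the lower one with the smallest p. The part of either list in the other's changes was not tested. In bulk RNA, fewer cells of a state and less RNA per cell cannot be told apart.

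Neuronal differentiation and axon guidance genes were called higher more often than lower. Over all genes the shares were 2.90% higher and 3.05% lower. Of 26 neuronal members tested, 7 were called higher, with a median of 0.15, and between 5 and 8 were when any 1 library was left out, or 4 with the 8 libraries alone in the fit. The single lower call in that list was lost without scrambled control replicate 1 or 5, or miR-100-3p replicate 1, 3 or 4. NEFH, the heavy neurofilament, measured 807, 816, 840 and 807 CPM in the control and 983, 1124, 1297 and 997 CPM with the mimic (log2 change 0.43, SE 0.09, edgeR adjusted p = 0.0024). NEFM, the medium neurofilament, GAP43 of the growth cone and the adhesion molecule CNTN1 rose by 0.40, 0.42 and 0.54 on the log2 scale. All 4 mimic libraries were above all controls for these 4 genes. With miR-380-3p, NEFM, GAP43 and CNTN1 rose by 0.65, 0.45 and 0.61, and NEFH was at −0.25. With miR-99b-5p, NEFM, CNTN1 and NEFH rose by 0.58, 0.45 and 0.30, and GAP43 was not called. With miR-485-3p, NEFM rose by 0.42 and GAP43 fell by 0.46. Against the other 5 mimics together NEFM was not called (log2 difference 0.13, SE 0.06, edgeR adjusted p = 0.17). NEFH, GAP43 and CNTN1 were higher in that contrast, by 0.44, 0.45 and 0.29.

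Of 34 axon guidance genes 8 were called higher and 2 lower (2.90% and 3.05% of all genes), with a median of 0.30. The higher count was 7 or 8 when any 1 library was left out. With the GC slope as a covariate, 4 were called lower. SLIT2, a secreted repellent of growing axons, measured 14.1, 9.96, 12.3 and 13.0 CPM against 23.4, 25.6, 32.8 and 28.2 CPM (log2 change 1.15, SE 0.14, edgeR adjusted p = 7.95e-06). NRP1, a semaphorin co-receptor, rose by 0.61 (SE 0.09). Its partner PLXNA4, a plexin with 2 7-mer sites, measured 50.7, 52.9, 47.4 and 64.9 CPM against 31.7, 29.6, 25.0 and 22.4 CPM and fell by 0.99 (SE 0.14, edgeR adjusted p = 4.62e-05). SLIT3, the second lower gene, fell by 0.42 (SE 0.07). The plexin and the neuropilin moved in opposite directions. With miR-380-3p, SLIT2 also rose, by 1.14 (SE 0.14), PLXNA4 fell by 0.67 (SE 0.14), and NRP1 and SLIT3 were not called.

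Targets of p53 had mostly negative changes, of which few passed the test. Of 24 tested, 23 had a negative log2 change, and the median was −0.26. In this list 5 were called lower and none higher, against 3.05% and 2.90% of all genes. Without scrambled control replicate 1 or 4, or miR-100-3p replicate 3, 3 were called lower, as with the 8 libraries alone in the fit, and 10 were with the GC slope as a covariate. DDB2, a sensor of ultraviolet damage, measured 17.2, 18.6, 21.3 and 14.6 CPM in the control and 11.9, 10.1, 10.9 and 11.3 CPM with the mimic (log2 change −0.69, SE 0.11, edgeR adjusted p = 0.000204). TNFRSF10B, a death receptor for TRAIL, and FDXR, ferredoxin reductase, fell by 0.56 (SE 0.10) and 0.81 (SE 0.17). 1 of the 24 genes has a 7-mer site, and it was not called lower.

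DNA replication genes also had mostly negative changes, by smaller amounts. Of 39 tested, 34 had a negative change, with a median of −0.11. Among them 8 were called lower and none higher, against 3.05% and 2.90% of all genes. The lower count was 9 without miR-100-3p replicate 1 and between 2 and 5 without any 1 of the other 7 libraries. It was 15 with the GC slope as a covariate, 5 with median-of-ratios or upper-quartile scaling, 4 with library-size scaling, 3 with no filter on low counts and 2 with the 8 libraries alone. TYMS had the smallest p in the list and LIG1, the DNA ligase of replication, the next, at 147, 142, 148 and 140 CPM against 113, 115, 105 and 119 CPM (log2 change −0.35, SE 0.07, edgeR adjusted p = 0.00109). TOP2A, a proliferation marker, was at −0.01 (SE 0.09, edgeR adjusted p = 0.977), with mimic values on both sides of the control. None of the 8 lower replication genes carries a 7-mer site in the 3′ UTR.

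Some interferon-induced genes fell, from low levels. Of 13 tested, 4 were called lower and none higher, against 3.05% and 2.90% of all genes. The lower count was 4 whichever 1 library was left out. With a filter at a mean CPM of at least 5, under which IFIT1, OAS1 and IFI6 were not tested, it was 1. IFIT1, which binds foreign RNA ends, measured 1.23, 1.52, 1.28 and 1.51 CPM in the control and 0.326, 0.757, 0.352 and 0.420 CPM with the mimic (log2 change −1.59, SE 0.24, edgeR adjusted p = 8.91e-05). OAS3, a sensor of double-stranded RNA, measured 16.1, 15.7, 13.9 and 17.0 CPM against 11.1, 8.91, 6.87 and 6.45 CPM. OAS1 and IFI6 fell by 1.11 (SE 0.17) and 1.02 (SE 0.25), and in all 4 genes the groups were separate. IFIT1 also fell by 1.42 (SE 0.23) with miR-485-3p and OAS1 by 1.18 (SE 0.17) with miR-380-3p. OAS3 was called with no other mimic. IFI6 was below the control under all 5 other mimics, with log2 changes from −0.46 to −0.78. Of these only miR-380-3p was called (edgeR adjusted p = 0.0432). Against the other 5 mimics together IFI6 was not called (log2 difference −0.39, SE 0.21, edgeR adjusted p = 0.214).

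Of 15 tested members of the BCL2 family, 1 was called lower and 1 higher, and 11 had a negative change (median −0.17). For all genes the shares were 3.05% lower and 2.90% higher. BCL2, which holds back apoptosis and carries 1 8-mer site, measured 41.8, 42.1, 35.6 and 35.7 CPM in the control and 24.4, 26.1, 18.8 and 20.5 CPM with the mimic (log2 change −0.79, SE 0.13, edgeR adjusted p = 0.000341). HRK, a BH3-only activator of apoptosis with a 7-mer site of its own, measured 9.56, 9.81, 14.3 and 10.4 CPM against 15.1, 17.6, 22.8 and 20.6 CPM (log2 change 0.79, SE 0.14, edgeR adjusted p = 0.000741). With miR-380-3p, BCL2 also fell, by 1.00 (SE 0.13, edgeR adjusted p = 8.57e-06), and HRK was not called.

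In the lists of matrix, TGF-beta and BMP, RAB and vesicle fusion genes, the members with a site that were called lower were 2 of 2, 2 of 5, 1 of 7 and 1 of 5. The share over all 1313 genes with a 7-mer site was 9.44%. In the other lists the count was 1 or 0, with 0 of 6 in the Wnt list. ITGB1, the beta 1 integrin, measured 240, 229, 214 and 234 CPM in the control and 131, 155, 176 and 125 CPM with the mimic (8-mer, log2 change −0.64, SE 0.10, edgeR adjusted p = 0.000183). BMPR2, the type II BMP receptor (8-mer), and RAB27B, a GTPase of vesicle secretion (2 sites, 1 an 8-mer), fell by 0.72 (SE 0.16) and 0.91 (SE 0.14). Genes with no UTR site in these and in the receptor kinase list moved both ways. NSF, the ATPase that recycles SNARE complexes, fell by 0.52 (SE 0.08) and the collagen COL5A1 by 0.77 (SE 0.16), while the ligand TGFB2 and the receptor kinase FGFR2 rose by 0.80 (SE 0.17) and 0.68 (SE 0.09). All 4 had groups that did not overlap.

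The cholesterol synthesis and proteasome lists had calls in 1 direction. So did other lists, such as lysosome (4 of 31 higher) and cadherins and protocadherins (3 of 22 higher). Among all genes 2.90% were called higher and 3.05% lower. Of 22 cholesterol synthesis genes, 3 were called higher and none lower, among them HMGCS1, which makes the HMG-CoA of the pathway, at 220, 226, 245 and 209 CPM against 286, 289, 357 and 313 CPM (log2 change 0.47, SE 0.10, edgeR adjusted p = 0.0042). INSIG1, the sterol-sensing brake of the pathway, rose by 0.65 (SE 0.15). Of 31 proteasome genes 4 were called higher and none lower, with a median of 0.12 and 4 of 31 below 0, and the smallest p was that of PSMD1 (log2 change 0.31, SE 0.06, edgeR adjusted p = 0.000925). 2 proteasome genes were called without scrambled control replicate 1 or 2, or with no filter on low counts. None of 51 respiratory chain, 35 splicing, 33 chromatin remodelling and 13 mitochondrially encoded genes was called against the control.

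**Figure D5:**
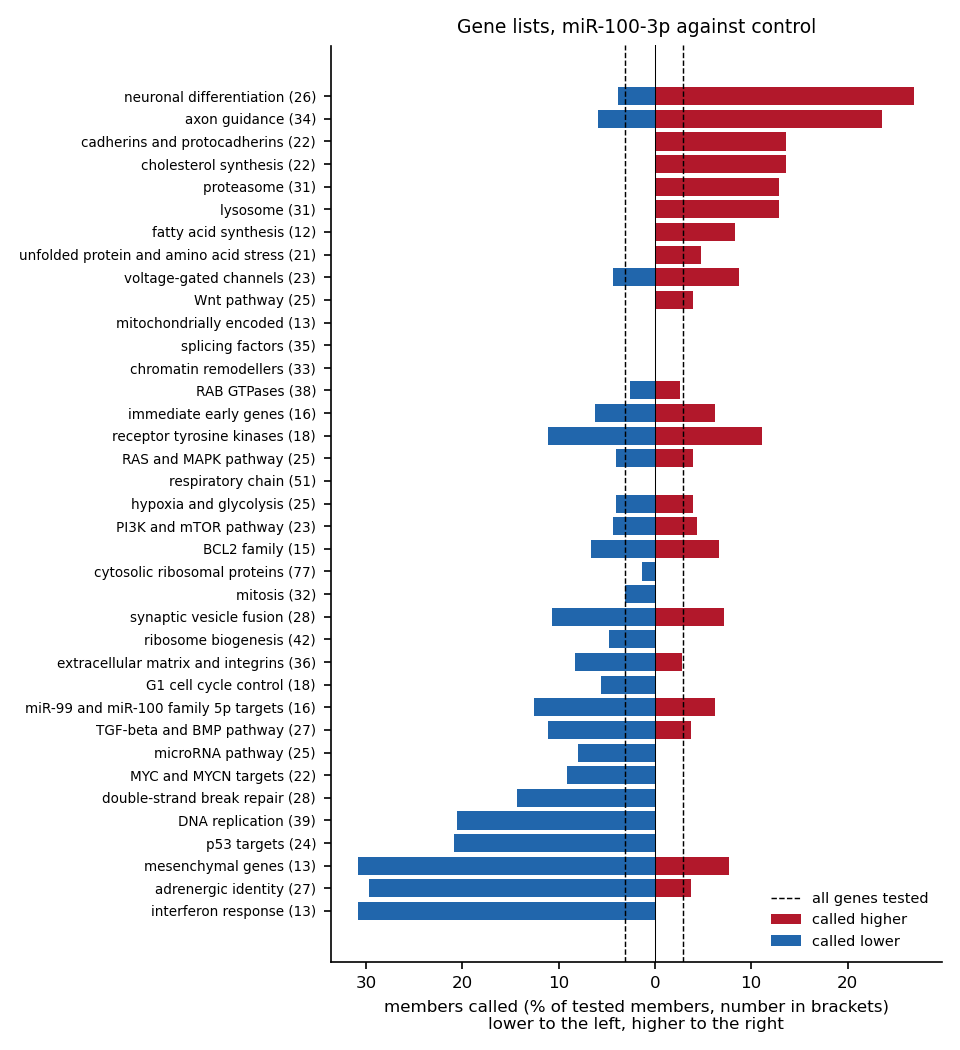
Share of the tested members of each gene list (number in brackets, lists with at least 10) called higher (red, to the right) or lower (blue, to the left) with miR-100-3p, as % of tested members. Dashed lines mark the shares over all genes, 2.90% higher and 3.05% lower. Neuronal differentiation and axon guidance lie at the top, and interferon response, adrenergic identity and mesenchymal genes at the bottom.

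MTOR and IGF1R, known targets of the opposite arm, were not called. MTOR had a log2 change of 0.08 (SE 0.07, edgeR adjusted p = 0.625) and IGF1R of −0.09 (SE 0.09, edgeR adjusted p = 0.651), and in both the values of the groups overlapped.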

How the data were processed

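The table holds expected counts per gene, estimated by the authors from aligned reads and deposited for all 28 libraries, 30887 rows of which 10.2% of values were not whole. Reads were aligned with STAR to hg19, per the submitters' processing notes, and the counting tool and annotation are not given in the sources used here. The library kit keeps strand, per the labels' protocols. Counts were rounded, genes were filtered by filterByExpr, scaled by TMM and fitted with edgeR 4.0.16 (quasi-likelihood, 28 libraries in 1 fit, 21 residual degrees of freedom; R 4.3.3, limma 3.58.1, DESeq2 1.42.0 as alternatives). CPM are TMM-scaled unless said otherwise, and log2 changes come from the fit. On simulated data with 15058 genes, the fit recovered 85% of 2-fold changes and 45% of changes of 0.5 on the log2 scale in this comparison, with 9 false calls. Sites were searched in GENCODE v29 3′ UTRs (GRCh38), so they are matched by gene and not by the authors' coordinates.

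Genes named are the 12 largest rises and falls (called, mean log2 CPM of at least 2 in the 8 libraries, groups not overlapping), the 10 lower site genes with the smallest p, up to 4 members per list by adjusted p, the 8 genes with the smallest p against the other mimics, and background genes. Members and lists were chosen with earlier results of these data known. Same-numbered libraries of both groups deviated with r of −0.03, 0.01 and 0.28 (numbers 1, 2 and 4), so the numbers were not taken to pair them. No libraries of 1 group agreed within sampling noise. Alternatives covered the test, scaling, filter, samples, block, library code, GC slope, each left-out library and the site definition. Some members of the lists and markers are not reported here by name.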

Additional observations from a re-analysis of the deposited data

Results flagged for a closer look

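In 6 of 146 groups of 4 libraries checked, 1 library lay farther from the other 3 than Dixon's 95% limit, and chance flags about 1 in 20 groups. These were NR4A3 in scrambled control replicate 5 (8.09 CPM), HBEGF in scrambled control replicate 4 (3.32 CPM), INSIG1 in scrambled control replicate 4 (77.5 CPM), COL5A1 in miR-100-3p replicate 3 (4.67 CPM), RAB27B in miR-100-3p replicate 4 (8.64 CPM) and TH in miR-100-3p replicate 4 (334 CPM).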

How the results depend on the processing

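The number of genes called against the control was 564 with no filter on low counts, 461 with the 8 libraries alone in the fit and 1764 with the GC slope of each library as a covariate, against 897. It ranged from 547 (without miR-100-3p replicate 3) to 910 when each library was left out. At 2-fold or more, 28 genes were called with a mean CPM of at least 5 and 44 with the 8 libraries alone, and 48 to 93 with each library left out. Site genes called lower numbered 225 with the GC slope, 48 for 8-mers, 276 for the 6-mer, 59 for coding sequence and 60 for the shortest UTR, and 93 to 126 with each library left out. Against the other 5 mimics, 4275 genes were called with the GC slope and 1807 to 2420 with each miR-100-3p library left out. With the replicate number as a block, 976 genes were called, 84.1% of the 897 among them, and the block is not taken as a pairing of the libraries. No gene called both with the main settings and under an alternative reversed its direction. Of the 70 genes tracked, 68 had the same call under all 19 alternatives that could be run. The cause of these differences was not tested.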
